A study of Mus musculus with 18 samples.

Results

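A set of 9 genes of the interferon signalling chain were followed in mouse colonic epithelial cells (CECs): the interferon-gamma receptor chains Ifngr1 and Ifngr2, the receptor-bound kinase Jak2, the transcription factors Stat2, Irf1, Irf7, Irf8 and Irf9, and the inhibitor Socs1. Members were all array probes that carry 1 of these 9 gene symbols. There were 19 such probes, out of 45281 on the array, and 17 of them, at least 1 for each gene, were detected often enough to be tested.

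The samples were CECs purified by flow cytometry (EpCAM+CD45-CD3-F4/80-) from WT mice and from mice lacking Mbd2 (Mbd2KO), a reader of DNA methylation that binds methylated CpG and brings corepressors to it. The 4 groups were naive WT, naive Mbd2KO, DSS WT and DSS Mbd2KO, with 4 samples in each. DSS groups drank 2% dextran sulfate sodium, which damages the colonic epithelium and gives colitis, for 6 days, and naive groups received none. All mice were on the C57BL/6 background and aged 8 to 22 weeks, both genotypes were littermates housed together where possible, and no allele other than Mbd2 differs between the groups by the labels. Mbd2 was missing from all cells of the knockout mice and not from CECs alone. A sample held 1 to 5 mice by the labels and 1 to 10 by the methods, and p-values measure the spread between these samples.

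Interferons reach the nucleus along a short chain. Interferon-gamma binds the Ifngr1/Ifngr2 receptor, Jak kinases activate Stat factors, and these act on GAS elements. Type I interferons act through another receptor, and Stat2 and Irf9 then enter a complex (ISGF3) that acts on ISRE elements. Irf1 is an early target of the gamma pathway and itself a transcription factor, Irf7 amplifies the type I response, Irf8 is best known in myeloid cells, and Socs1 blocks Jak kinases. In the intestinal epithelium this pathway controls genes of antigen presentation and antimicrobial defence.

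Probe signals are given below as normalised log2 signal, on which a difference of 1 is a doubling. Each group is written with its 4 samples in the order of their replicate numbers, which are 9 to 12 for naive WT, 13 to 16 for naive Mbd2KO, 1 to 4 for DSS WT and 5 to 8 for DSS Mbd2KO. A probe was called at an adjusted p under 0.01 and a change of at least 1, and a looser rule asked for an adjusted p under 0.05 at any size of change. Only changes past the looser rule are described as rises or falls. All adjusted p-values are from limma, and 95% intervals are not adjusted for the number of probes. Levels of different probes are not compared with each other.

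The start regions of 6 members are printed because these genes are the transcription factors and the inhibitor whose levels are described below, and because GAS and ISRE are the elements through which the pathway acts. Each line holds the 250 bases before the RefSeq start (build GRCm38.p6), 5′ to 3′ on the gene's strand, and capitals mark each match to GAS (TTC, any 3 bases, GAA, which reads the same on both strands) or to ISRE (GAAA, any 2 bases, GAAA, or TTTC, any 2 bases, TTTC, for the other strand).
Irf1, chr11:53769764-53770013, plus strand: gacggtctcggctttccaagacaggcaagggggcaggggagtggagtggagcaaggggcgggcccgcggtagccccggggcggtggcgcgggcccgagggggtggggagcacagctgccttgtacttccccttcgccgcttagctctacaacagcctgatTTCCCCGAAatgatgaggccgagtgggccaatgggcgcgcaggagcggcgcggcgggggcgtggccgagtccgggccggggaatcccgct
Irf8, chr8:120736108-120736357, plus strand: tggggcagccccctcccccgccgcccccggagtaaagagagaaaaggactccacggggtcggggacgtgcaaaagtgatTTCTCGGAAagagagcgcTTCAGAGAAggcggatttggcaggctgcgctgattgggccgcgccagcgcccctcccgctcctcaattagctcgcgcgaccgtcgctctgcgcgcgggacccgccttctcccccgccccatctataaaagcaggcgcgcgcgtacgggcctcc
Stat2, chr10:128270248-128270497, plus strand: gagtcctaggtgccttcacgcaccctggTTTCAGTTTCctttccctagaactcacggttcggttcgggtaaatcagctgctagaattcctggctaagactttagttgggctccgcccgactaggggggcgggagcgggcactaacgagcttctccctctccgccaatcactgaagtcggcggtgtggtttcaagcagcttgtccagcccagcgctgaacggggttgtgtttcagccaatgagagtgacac
Irf9, chr14:55603735-55603984, plus strand: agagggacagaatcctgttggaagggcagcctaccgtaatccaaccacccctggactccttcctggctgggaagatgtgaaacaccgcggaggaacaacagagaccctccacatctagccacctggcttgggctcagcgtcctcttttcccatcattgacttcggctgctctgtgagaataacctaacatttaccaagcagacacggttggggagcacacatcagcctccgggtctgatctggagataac
Irf7, chr7:141266425-141266674, minus strand: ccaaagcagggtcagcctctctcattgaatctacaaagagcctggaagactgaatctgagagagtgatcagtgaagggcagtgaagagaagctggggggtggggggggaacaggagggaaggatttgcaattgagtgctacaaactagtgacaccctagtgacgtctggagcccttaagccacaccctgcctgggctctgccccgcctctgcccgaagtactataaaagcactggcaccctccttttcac
Socs1, chr16:10785537-10785786, minus strand: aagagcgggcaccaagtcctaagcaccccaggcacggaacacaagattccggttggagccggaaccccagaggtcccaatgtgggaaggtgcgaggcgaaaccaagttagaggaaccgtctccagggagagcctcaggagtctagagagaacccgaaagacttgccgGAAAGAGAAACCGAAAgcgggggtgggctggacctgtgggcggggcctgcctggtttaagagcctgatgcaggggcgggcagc

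Irf1 had 1 GAS match, 90 bases before the start, and Irf8 had 2, at 171 and 153 bases. Stat2 had 1 ISRE match, 222 bases before the start. In Socs1, 2 overlapping ISRE matches lay 83 and 77 bases before the start and form the single run of capitals. No window of Irf7, Irf9, Ifngr1, Ifngr2 or Jak2 held either set of letters, and neither did the second windows of Irf1, Irf8 and Irf9. GAS letters occur in 7.02% of all 32851 windows of this length and ISRE letters in 2.98%, and each was found in 2 of the 12 member windows. The number of CpG pairs, the sites that can be methylated, had a median of 6 over all windows. In the first and second windows it was 7 and 1 for Irf9, 29 and 8 for Irf8 and 25 and 35 for Irf1. It was 3 for Irf7, 11 for Ifngr1, 13 for Socs1, 14 for Stat2, 25 for Ifngr2 and 37 for Jak2. A match is a stretch of letters and does not show that a factor binds there.

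Before the members, the samples themselves. The only Mbd2 probe was detected on 0 of 18 arrays, so the genotype labels could not be checked from it and were taken as given. All 14 epithelial markers (Epcam, Krt8, Vil1 and others) were detected on every array, and their mean log2 signal lay between 11.51 and 11.73 in every sample. Single markers were less even. Under the looser rule 0 of 14 differed between genotypes, and Cdh1 fell with DSS in WT (-0.37, adjusted p = 0.0378). Epcam did not pass, but groups did not overlap between naive genotypes (-0.62, adjusted p = 0.0509) or for DSS in WT (-0.54, adjusted p = 0.0615). Krt20 in Mbd2KO against WT gave 0.64 in naive CECs and 0.61 after DSS (adjusted p = 0.0531 and 0.0619). Markers of other cells were also present. The mean over 8 tested myeloid markers of 10 (Cd14, Csf1r, Lyz2 and others) was 6.03 to 6.74 in naive WT, 6.27 to 7.33 in naive Mbd2KO, 7.54 to 8.44 in DSS WT and 8.16 to 8.29 in DSS Mbd2KO. That over 5 of 6 general leukocyte markers was 6.12 to 6.90, 6.10 to 7.29, 7.42 to 8.32 and 7.83 to 8.04 in the same order. Fewer markers of other leukocytes were detected often enough to be tested, namely 2 of 8 for dendritic cells (Siglech on 18 arrays and Ccr7 on 14), 4 of 6 for neutrophils (S100a8 on 11), 5 of 10 for T and NK cells (Cd3d on 8) and 3 of 7 for B and plasma cells (Mzb1 on 18, Cd79b on 15). The mean over these 3 was 5.10 to 5.62 in naive WT, 5.15 to 6.41 in naive Mbd2KO, 5.68 to 6.05 in DSS WT and 5.66 to 6.57 in DSS Mbd2KO, and 0 of 3 passed the looser rule in any of the 4 comparisons (Mzb1 in naive CECs 1.09, adjusted p = 0.144). The neutrophil markers S100a8 and S100a9 rose with DSS by 2.82 and 2.25 in WT and, called, by 3.82 and 3.07 in Mbd2KO, their list being at 4.51 to 4.70, 4.46 to 4.76, 5.52 to 7.04 and 5.63 to 8.49 in the same order of groups. Of the dendritic markers, Siglech fell in naive Mbd2KO (-0.78) and was called with DSS in Mbd2KO (1.02), and Ccr7 rose with DSS in WT (0.94). Of the T and NK markers, 2 of 5 rose with DSS in WT under the looser rule, and Cd3g and Klrd1 were lower in Mbd2KO after DSS (-0.45 and -0.52). The defining markers Itgam, Itgax, Flt3, Xcr1, Clec9a, Cxcr2, Cd8a, Gzmb and Ms4a1 were detected on 0 arrays, and Ptprc, which encodes CD45, on 3. Myeloid markers moved with DSS, where 7 of 8 were called higher in WT and 4 of 8 in Mbd2KO (7 of 8 in both under the looser rule). Between genotypes 0 of 8 were called, but 7 of 8 differences were above 0 in naive CECs (median 0.585), with Csf1r past the looser rule (0.67, adjusted p = 0.0486), and 7 of 8 after DSS (median 0.368). The part of these markers in the genotype and DSS differences below was not tested, and in sorted bulk samples fewer cells of a type and less RNA per cell cannot be told apart. Stromal markers went the other way with genotype. Of the smooth muscle markers (6 of 7 tested), 5 were lower in Mbd2KO than in WT after DSS under the looser rule, and 3 were called (median -1.22). In DSS against naive 0 of 6 passed the looser rule in either genotype. Their mean was 9.25 to 10.19 in naive WT, 8.76 to 9.36 in naive Mbd2KO, 9.64 to 10.22 in DSS WT and 7.97 to 9.14 in DSS Mbd2KO. The 8 endothelial markers were at 6.21 to 6.54, 5.97 to 6.20, 6.47 to 6.93 and 5.87 to 6.04 in the same order, and after DSS 6 of 8 were lower in Mbd2KO under the looser rule, of which Emcn (-1.14) and Esam (-1.17) were called. In naive CECs Esam was lower in Mbd2KO as well (-0.75, adjusted p = 0.0263), and no other stromal marker passed the looser rule there. The 8 fibroblast markers were at 7.34 to 8.35, 7.21 to 7.90, 8.38 to 8.96 and 7.56 to 8.44. Of these, Dpt and Lum were lower in Mbd2KO after DSS (-1.22 and -0.89), and 6 of 8 rose with DSS in WT under the looser rule, of which Pdgfra (1.38) and Lum (1.05) were called. The part of stromal markers in the members' values was not tested. DSS WT replicates 2 and 4 stand apart in a way described with Irf1. Many results against DSS WT are given with and without them, the latter with 2 samples left in DSS WT. Marker differences and means over the probes of a gene are given only with them. Naive Mbd2KO replicate 15 lay on the other side of that measure, as far out as DSS WT replicate 4, and had the lowest array weight (0.34), and without it the 3 calls between the naive groups remained 3 in number, with 5 in place of 7 probes past the looser rule.

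Irf7 and Irf9 rose in naive Mbd2KO CECs relative to naive WT, by 2.53-fold and 2.22-fold, and were the 2 genes of the 9 whose brightest probe was called in any of the 4 comparisons between groups. Over all 15757 genes, 0.723% had their brightest probe called in naive Mbd2KO against naive WT, 0.888% in DSS Mbd2KO against DSS WT, 1.91% in DSS WT against naive WT and 1.92% in DSS Mbd2KO against naive Mbd2KO. A second Irf1 probe was called as well, which made 3 of the 17 member probes called, all higher, where 0.656% of all 21938 tested probes were called and 0.401% were called higher. Under the looser rule 7 of 17 member probes rose (Stat2, Irf7, Irf9 with both probes and Irf1 with 3 of 5) and 0 fell, where 5.19% of all probes passed and 2.43% passed as higher. In 10 of 17 the naive groups did not overlap, as in 12.3% of all probes. After DSS, 0 of 17 were called between genotypes (0.862% of all probes), 10 had an unadjusted p under 0.05 (22.2% of all probes), and 5 rose under the looser rule (Stat2, Irf7, Irf8 and 2 Irf1 probes), where 5.63% of all probes passed and 2.46% passed as higher. Without DSS WT replicates 2 and 4 these 5 became 1, and without 1 sample at a time they ranged from 2 to 7. Leaving out both left 2 samples in DSS WT, and the part of this smaller number in the lost passes was not tested. The genotype difference after DSS went from 0.69 to 0.66 for Stat2, 0.90 to 0.75 for Irf7 and 0.78 to 1.01 for Irf8. For the 2 Irf1 probes it went from 1.72 to 0.79 and from 1.65 to 0.80. Probes of 1 gene are not independent, and over the brightest probe of each gene the counts under the looser rule were 4 of 9 in naive CECs and 3 of 9 after DSS, against 5.43% and 5.6% of all genes. For DSS against naive they were 4 of 9 in WT and 3 of 9 in Mbd2KO, against 10.8% and 9.84%. The median change over the 17 probes was 0.83 in naive CECs and 0.55 after DSS, against -0.00108 and -0.00336 over all tested probes. Over the brightest probe of each of the 9 genes it was 0.45 and 0.43.

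DSS raised Irf8 in both genotypes, and in WT also Stat2, Irf1 and Irf9, which had risen with genotype in naive CECs. In WT, DSS against naive called 1 of 17 probes (the Irf1 probe that was also called between the naive groups), where 1.74% of all probes were called, and 7 passed the looser rule (10.5% of all probes), of which 5 rose, where 5.71% of all probes did (Stat2, Irf1 with 2 probes, Irf8 and Irf9), and 2 fell (both probes of Ifngr2 other than the brightest). Without DSS WT replicates 2 and 4 these 7 became 4. In Mbd2KO 0 of 17 were called (1.72% of all probes), 6 had an unadjusted p under 0.05 (24.5% of all probes), and 4 rose under the looser rule, which 9.42% of all probes passed and 4.9% passed as higher, namely Ifngr2, Irf8, Socs1 and 1 Irf1 probe. The groups did not overlap in 7 of 17 probes in WT and 2 of 17 in Mbd2KO, against 17% and 15.9% of all probes. The difference between the genotype effects with and without DSS (the interaction) was called for 0 of 17 members and 0 of 21938 probes, and 5 member probes had an unadjusted p under 0.05, as had 10.7% of all probes. The comparisons of naive Mbd2KO and of DSS WT with naive WT share the naive WT samples, and those with DSS WT and with naive Mbd2KO share samples likewise, so their values are set side by side and not correlated.

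**Figure D1:**
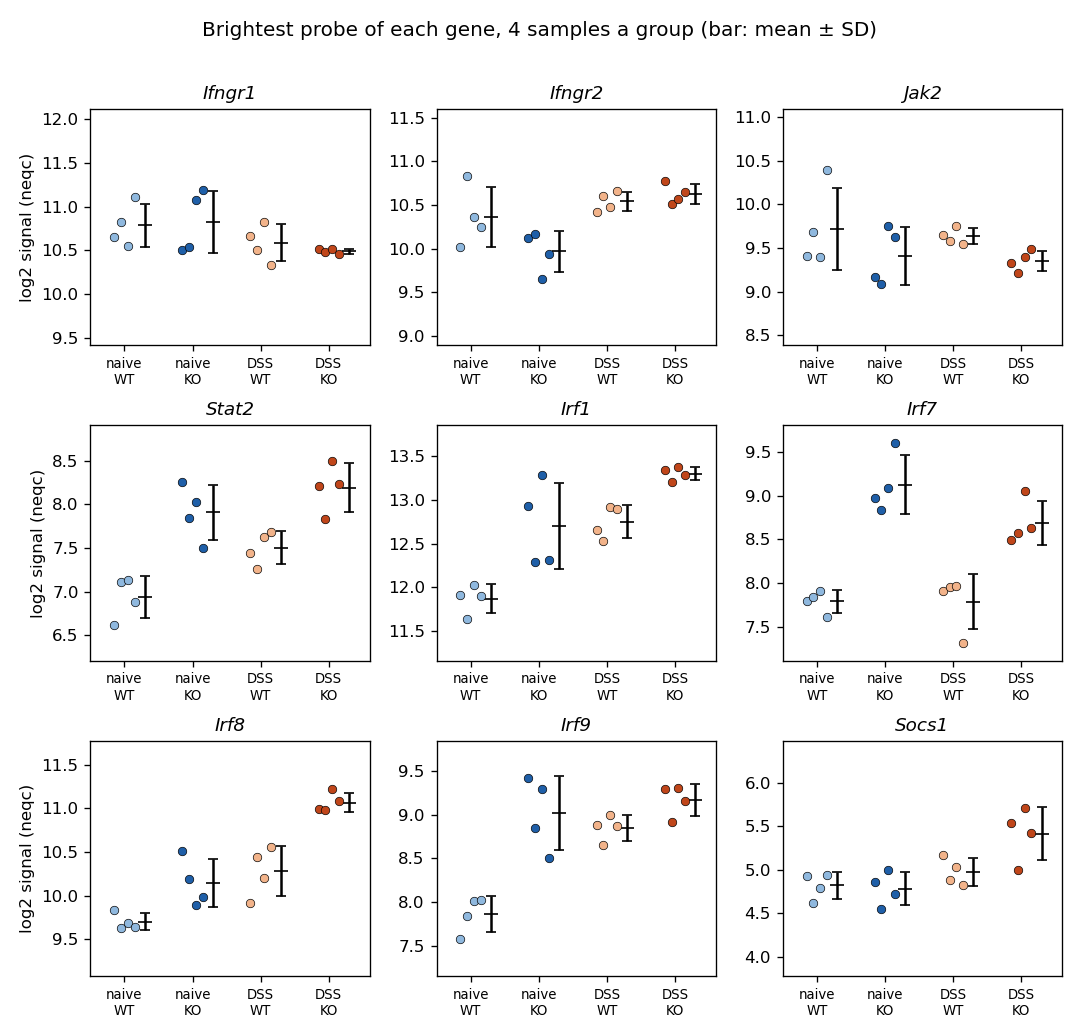
Normalised log2 signal (y axis) of the brightest probe of each of the 9 genes in the 4 groups (x axis), with 1 point a sample and bars for the mean ± SD of 4 samples; y axes differ in position and not in span. Irf7 is high in both Mbd2KO groups and low in both WT groups, whereas Irf9 is low in naive WT alone and Ifngr1 overlaps between the groups in each of the 4 comparisons.

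**Figure D2:**
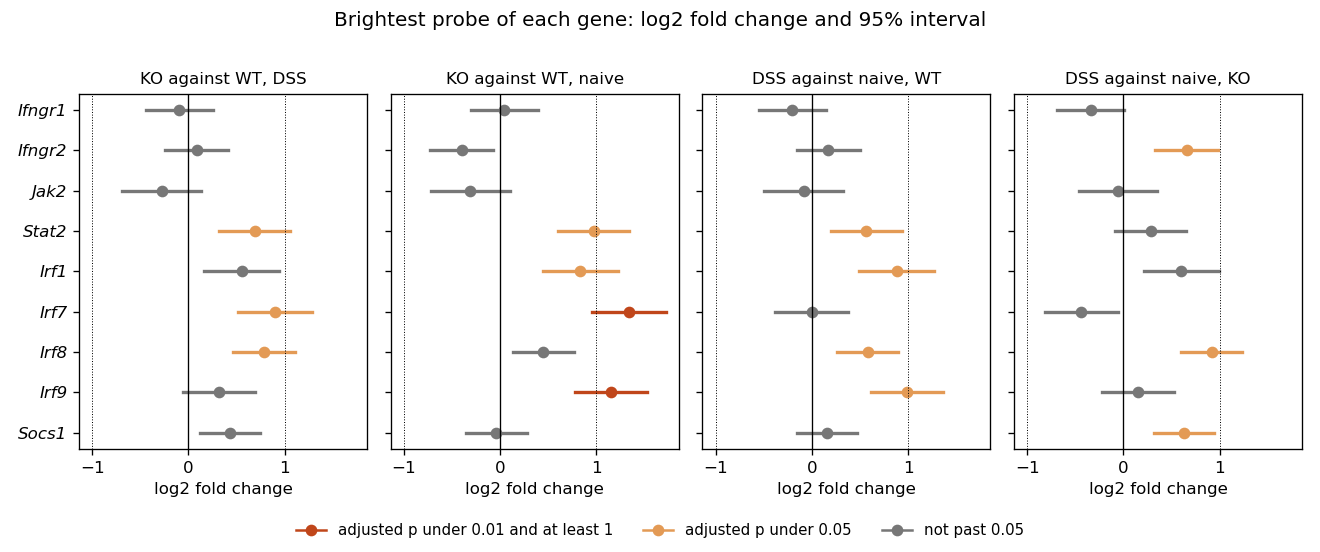
Log2 fold change (x axis) with its unadjusted 95% interval for the brightest probe of each gene (y axis) in 4 comparisons, coloured by the limma rule it passed; dotted lines mark a change of 1 either way. The 2 called genes are Irf7 (1.34) and Irf9 (1.15) in naive Mbd2KO against naive WT, and no brightest probe fell under either rule.

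The receptor chains and the kinase stand first in the chain, and 0 of their 6 tested probes were called in any comparison, a number too small to set against the 0.656% to 1.74% of all probes called. Ifngr1, the ligand-binding chain, read 10.65, 10.82, 10.56 and 11.12 in naive WT and 10.50, 10.54, 11.07 and 11.19 in naive Mbd2KO. After DSS it read 10.67, 10.51, 10.83 and 10.34 in WT and 10.51, 10.48, 10.52 and 10.45 in Mbd2KO. Groups overlapped in each of the 4 comparisons, although all DSS Mbd2KO samples were below all naive WT samples, and Ifngr1 passed the looser rule in no comparison. Mbd2KO differed from WT by 0.04 in naive CECs (95% interval -0.31 to 0.39, adjusted p = 0.914) and by -0.10 after DSS (-0.44 to 0.25, adjusted p = 0.791), intervals that leave room for a shift of either sign but not for a doubling.

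Ifngr2, the signalling chain of the receptor, was read by 3 probes that disagreed. The brightest, late in the transcript, read 10.12, 10.17, 9.65 and 9.94 in naive Mbd2KO and 10.78, 10.51, 10.57 and 10.65 after DSS, without overlap, and rose by 0.66 (SE 0.155, adjusted p = 0.0139). In naive WT it read 10.02, 10.84, 10.36 and 10.25 and after DSS 10.42, 10.60, 10.47 and 10.66, which overlap (0.17, adjusted p = 0.511). The probe ILMN_2592709 read 8.81, 9.10, 8.98 and 9.46 in naive WT and 8.55, 8.08, 8.57 and 8.52 in DSS WT, and fell by 0.66 on the log2 scale (SE 0.150, adjusted p = 0.0113). The third probe, which shares 49 of its 50 bases with it, fell by 0.59 (adjusted p = 0.0201), and neither passed the looser rule in DSS against naive Mbd2KO (-0.20 and -0.23, adjusted p = 0.439 and 0.369). Without DSS WT replicates 2 and 4, the fall of ILMN_2592709 was 0.53, with an adjusted p of 0.116. Across the 16 samples these 2 probes had r = 0.954 with each other and r = -0.298 and -0.397 with the brightest. A stretch of 20 bases of the brightest probe also occurs in 3 probes of 3 other genes and in 1 start region, which is true of no other member probe, and the mean over the 3 probes gave a change of 0.08 in DSS against naive Mbd2KO (adjusted p = 0.741). The direction for Ifngr2 in DSS against naive thus depends on the probe. Between genotypes the 3 probes had the same sign, at -0.40, -0.20 and -0.19 in naive CECs and 0.09, 0.25 and 0.17 after DSS, and none passed the looser rule (lowest adjusted p = 0.139, for the brightest in naive CECs).

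Jak2, the kinase attached to Ifngr2, read 9.40, 9.68, 9.40 and 10.39 in naive WT and 9.17, 9.08, 9.75 and 9.63 in naive Mbd2KO with its brightest probe. After DSS it read 9.65, 9.58, 9.75 and 9.55 in WT and 9.32, 9.21, 9.39 and 9.48 in Mbd2KO. The DSS groups did not overlap, as in 14.7% of all probes, but the difference of -0.28 did not pass (95% interval -0.69 to 0.13, adjusted p = 0.43), and in naive CECs it was -0.31 (-0.72 to 0.10, adjusted p = 0.357). A second Jak2 probe gave -0.35 and -0.27 (adjusted p = 0.263 and 0.382), and 2 others were detected on 0 arrays.

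**Figure D3:**
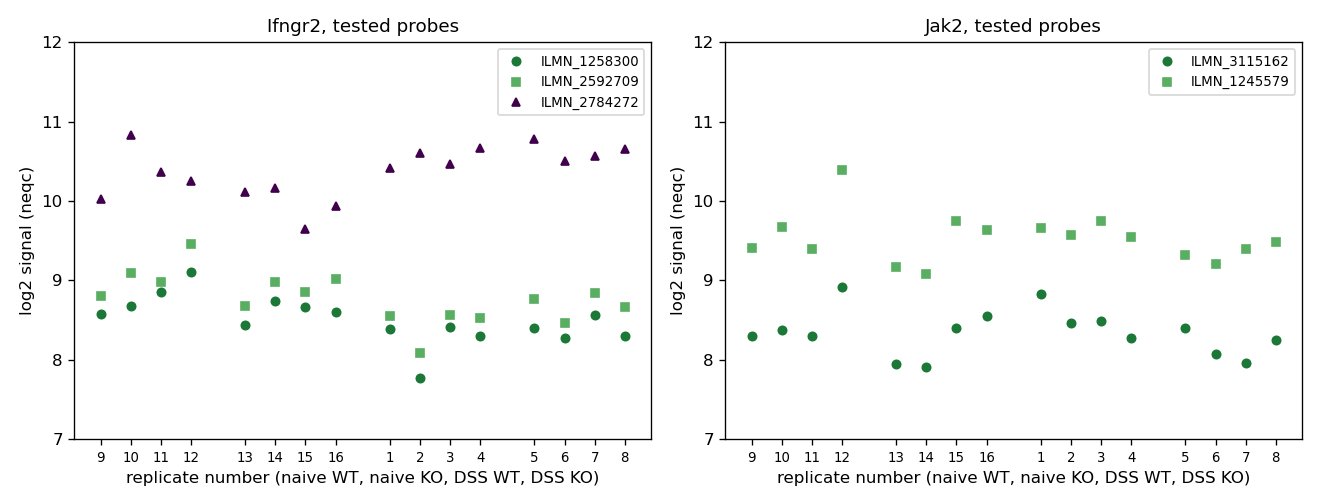
Normalised log2 signal (y axis) of the 3 tested Ifngr2 probes and the 2 tested Jak2 probes in each of the 16 samples (x axis, replicate numbers in the order naive WT, naive Mbd2KO, DSS WT, DSS Mbd2KO). The brightest Ifngr2 probe is higher after DSS in Mbd2KO, whereas the other 2, which overlap by 49 bases, are lowest in DSS WT replicate 2; both Jak2 probes are highest in naive WT replicate 12.

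Stat2, the Stat subunit particular to ISGF3, was higher in Mbd2KO with and without DSS. It read 6.62, 7.11, 7.14 and 6.88 in naive WT and 8.25, 7.84, 8.03 and 7.50 in naive Mbd2KO, without overlap, a rise of 0.97 (adjusted p = 0.00539, and 0.58 with 0.0106 without background correction). After DSS it read 7.44, 7.26, 7.62 and 7.68 in WT and 8.21, 7.83, 8.50 and 8.24 in Mbd2KO, again without overlap, a rise of 0.69 (SE 0.175, adjusted p = 0.0293). DSS raised it in WT by 0.57 (adjusted p = 0.0486), and in Mbd2KO the difference was 0.28 (adjusted p = 0.335). With median scaling these were 0.87 and 0.61, where the medians of all probes were 0.241 and 0.233. Of 12 alternatives, the DSS difference passed the looser rule under 8 in WT and under 1 in Mbd2KO. The interaction was -0.28 (adjusted p = 0.739), so the genotype effect was not shown to differ with DSS. Of 16 fits that each left out 1 sample, the naive genotype difference passed the looser rule in 16, that after DSS in 11 (not without DSS WT replicates 1 or 2 or DSS Mbd2KO replicates 5, 7 or 8, highest adjusted p = 0.102) and the DSS difference in WT in 6. Without both DSS WT replicates 2 and 4 the values were 0.66 between genotypes after DSS (adjusted p = 0.208) and 0.60 for DSS in WT (adjusted p = 0.158). With the mean of the myeloid markers Stat2 had r = 0.667 over the 16 samples and 0.653 after group means were removed, and with that of the B and plasma cell markers 0.809 and 0.735.

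Irf9, the DNA-binding partner of Stat2, was lower in naive WT than in every other group at its brightest probe, which read 7.57, 7.84, 8.02 and 8.02 in naive WT, 9.42, 8.85, 9.29 and 8.50 in naive Mbd2KO, 8.88, 8.65, 9.00 and 8.87 in DSS WT and 9.30, 8.92, 9.30 and 9.16 in DSS Mbd2KO. Every sample of the other groups was above every naive WT sample, and those groups overlapped with their neighbours in order. Naive Mbd2KO exceeded naive WT by 1.15 (adjusted p = 0.0017, but 0.0267 when only these 2 groups were fitted, which ends the call), and DSS WT exceeded naive WT by 0.99 (adjusted p = 0.00238), just under the limit of 1. Without DSS WT replicates 2 and 4 the latter difference was 1.08 (adjusted p = 0.0172). After DSS the genotypes differed by 0.32 (SE 0.177, adjusted p = 0.311), and by 0.23 without DSS WT replicates 2 and 4 (adjusted p = 0.756). DSS against naive gave 0.15 in Mbd2KO (adjusted p = 0.642). With median scaling the latter was 0.52, where the median of all probes was 0.233, and it passed the looser rule under 1 of 12 alternatives. The interaction was -0.84 (95% interval -1.36 to -0.31, unadjusted p = 0.00386), but its adjusted p over all probes was 0.252. The second probe, near the transcript start, rose by 1.104 in naive Mbd2KO (adjusted p = 0.0284) and gave 0.72 between genotypes after DSS (adjusted p = 0.126). For DSS against naive in WT it gave 0.65, with overlapping groups (adjusted p = 0.139), and 1.05 without DSS WT replicates 2 and 4 (adjusted p = 0.0775). Its signal minus that of the brightest probe was lowest in these 2 samples, at -2.79 and -2.92, and lay between -2.62 and -1.87 in the other 14. With the mean of the myeloid markers Irf9 had r = 0.739, and 0.681 after group means were removed, and with that of the B and plasma cell markers 0.83 and 0.766.

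Irf7, the amplifier of type I interferon, split the samples by genotype. It read 7.79, 7.84, 7.91 and 7.61 in naive WT and 7.91, 7.95, 7.97 and 7.31 in DSS WT. In Mbd2KO it read 8.98, 8.84, 9.09 and 9.60 without DSS and 8.49, 8.57, 9.05 and 8.63 with it. All 8 Mbd2KO samples were above all 8 WT samples. The rise in Mbd2KO was 1.34 in naive CECs (adjusted p = 0.000603, called) and 0.90, or 1.87-fold, after DSS (SE 0.180, adjusted p = 0.00923, under the limit of 1). DSS against naive gave -0.0011 in WT (95% interval -0.38 to 0.38, adjusted p = 0.998) and -0.44 in Mbd2KO (adjusted p = 0.14), and the interaction of -0.44 did not pass (adjusted p = 0.57). Without DSS WT replicates 2 and 4 the difference after DSS was 0.75, with an adjusted p of 0.114. Over the 16 samples Irf7 had r = 0.0432 with the mean of the myeloid markers, -0.727 with that of the endothelial and -0.577 with that of the smooth muscle markers, and -0.199, -0.12 and 0.318 after group means were removed. With the epithelial markers it had r = 0.38 and with the neutrophil markers -0.136, and 0.594 and -0.44 after group means were removed.

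Irf8, which in myeloid cells directs their development, was highest in DSS Mbd2KO. It read 9.84, 9.63, 9.69 and 9.64 in naive WT, 10.52, 10.19, 9.89 and 9.99 in naive Mbd2KO, 9.91, 10.45, 10.21 and 10.56 in DSS WT and 10.99, 10.98, 11.22 and 11.08 in DSS Mbd2KO. DSS Mbd2KO lay above all other samples, naive WT below all others, and the 2 groups between them overlapped. Mbd2KO exceeded WT by 0.78 after DSS (SE 0.150, adjusted p = 0.00703), and in naive CECs the difference of 0.45 did not pass (adjusted p = 0.0901) although these groups did not overlap. DSS raised Irf8 by 0.58 in WT (adjusted p = 0.0215) and by 0.92 in Mbd2KO (adjusted p = 0.00162), and the interaction of 0.34 did not pass (adjusted p = 0.612). Without DSS WT replicates 2 and 4 the genotype difference after DSS was 1.01 (adjusted p = 0.0207), and the DSS difference in WT was 0.36 (adjusted p = 0.276), which also fell short without naive WT replicate 10 or 12 or either DSS WT sample alone. Irf8 had r = 0.818 with the mean of the myeloid markers over 16 samples and 0.315 after group means were removed. The latter r was -0.45 with the epithelial, 0.427 with the endothelial, 0.42 with the fibroblast, 0.419 with the T and NK and 0.399 with the leukocyte markers.

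Irf1 was read by 5 probes, 2 in the last part of the transcript and 3 near its start, and the probes differed in their account of DSS WT. With the brightest probe, which starts at base 1985, it read 11.91, 11.64, 12.03 and 11.90 in naive WT, 12.93, 12.28, 13.29 and 12.31 in naive Mbd2KO, 12.65, 12.53, 12.92 and 12.90 in DSS WT and 13.34, 13.20, 13.38 and 13.29 in DSS Mbd2KO. Naive WT was below all other samples, and DSS Mbd2KO was above all DSS WT samples. Mbd2KO exceeded WT by 0.83 in naive CECs (adjusted p = 0.0174), the difference of 0.55 after DSS did not pass (SE 0.185, adjusted p = 0.0888), and DSS raised WT by 0.88 (adjusted p = 0.00674). The naive difference fell short without naive WT replicate 10 or naive Mbd2KO replicate 13 (highest adjusted p = 0.0623), with median scaling and where only the naive groups were fitted (highest adjusted p = 0.0804). As the mean of the 5 probes, DSS in WT gave 0.59 (adjusted p = 0.208) and the genotypes after DSS differed by 1.13 (adjusted p = 0.0338). The neighbouring probe at base 1708 was called in naive Mbd2KO against naive WT (1.12, adjusted p = 0.00121) and in DSS WT against naive WT (1.09, adjusted p = 0.000741), and gave 0.56 between genotypes after DSS (adjusted p = 0.0531). After DSS in Mbd2KO the difference was 0.60 with the brightest probe (adjusted p = 0.0512) and 0.53 with its neighbour (adjusted p = 0.0487). The former ranged from 0.59 to 0.98 under 12 alternatives and passed the looser rule under 7 of them. The brightest probe had r = 0.84 with the mean of the myeloid markers, and 0.621 after group means were removed.

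The early Irf1 probes differed most in DSS WT. The probe at base 329 read 8.34, 7.75, 8.65 and 8.08 in naive WT and 9.41, 6.41, 9.15 and 8.47 in DSS WT, so that DSS against naive gave 0.15 (adjusted p = 0.873). In DSS Mbd2KO it read 10.17, 9.83, 10.11 and 10.19, which put Mbd2KO 1.72 above WT after DSS (adjusted p = 0.0435). DSS WT replicate 2 was the lowest of all 16 samples at this probe, although at the brightest probe it was 12.53, next to 12.65 in replicate 1. The early minus late signal (base 329 minus base 1985) was -3.24, -6.12, -3.77 and -4.43 in DSS WT and between -3.10 and -3.88 in the other 12 samples. The same quantity was formed for 1502 other genes with a pair of tested probes at least 1000 bases apart, and its median deviation from each gene's mean was 0.0529, -0.319, -0.0483 and -0.212 in DSS WT and -0.047 to 0.211 elsewhere. DSS WT replicates 2 and 4 were thus low in early probes over many genes and not at Irf1 alone, and Irf1 followed this measure over the 16 samples (r = 0.893, a description over samples of 4 groups). Without these 2 samples the probe at base 329 gave 0.79 between genotypes after DSS (adjusted p = 0.307) and 1.07 for DSS in WT (adjusted p = 0.0822), close to the brightest probe with all samples. The probe at base 331 shares 49 of 50 bases with that at base 329 and gave nearly the same values (r = 0.998), so they are 1 measurement. The earliest probe, at base 234, read 7.68, 5.57, 7.08 and 6.59 in DSS WT, with replicate 2 again the lowest of all samples. It rose in naive Mbd2KO (1.29, adjusted p = 0.0476) and gave 1.17 between genotypes after DSS (adjusted p = 0.0663) and 0.68 for DSS in WT (adjusted p = 0.243, and 1.33 with 0.0377 without DSS WT replicates 2 and 4). The cause of the loss of early signal was not tested.

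**Figure D4:**
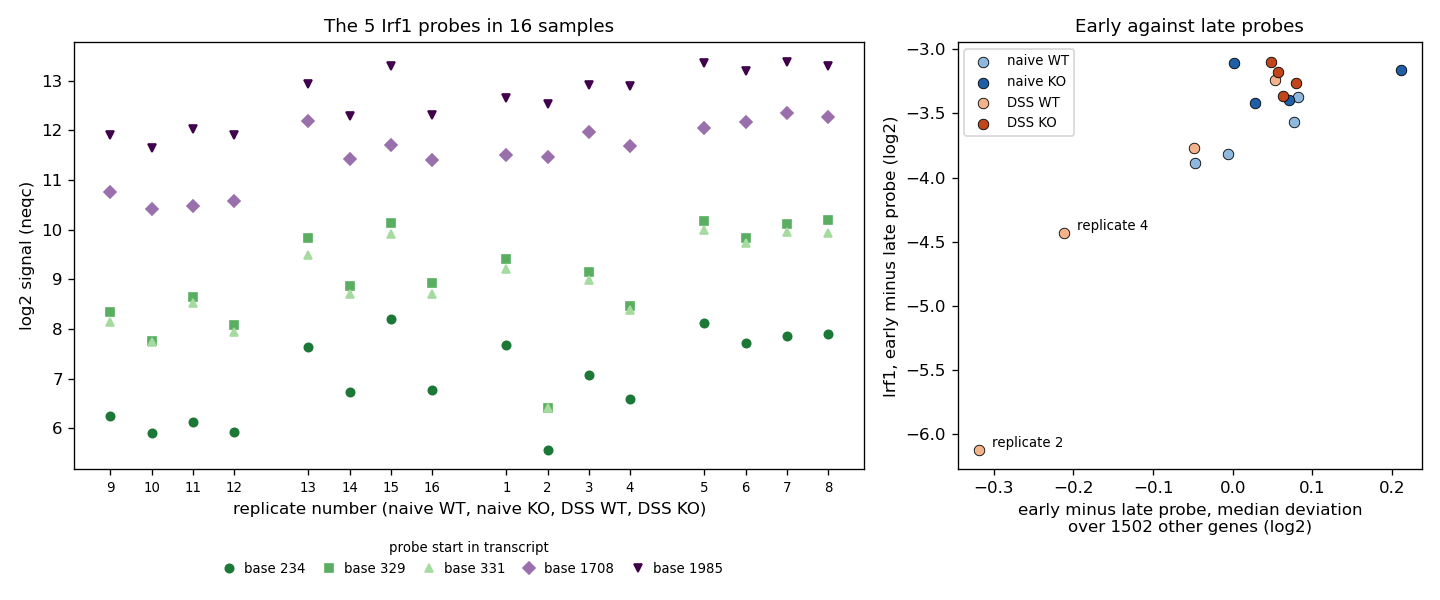
Left, normalised log2 signal (y axis) of the 5 Irf1 probes, marked by the base at which they start in the transcript, in the 16 samples (x axis, replicate numbers by group). Right, early minus late Irf1 signal (y axis, log2) against the median deviation of the same quantity over 1502 other genes (x axis, log2), with 1 point a sample; DSS WT replicates 2 (-6.12) and 4 (-4.43) lie at the low end of both axes.

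Socs1, the feedback inhibitor of Jak kinases, was near background and is the weakest measurement of the 9 genes. It was detected on 1 of 4 arrays in naive WT, 1 of 4 in naive Mbd2KO, 3 of 5 in DSS WT and 5 of 5 in DSS Mbd2KO, and the lowest detected signal on an array was 4.86 to 5.05. It read 4.86, 4.55, 5.00 and 4.72 in naive Mbd2KO and 5.53, 4.99, 5.70 and 5.42 in DSS Mbd2KO, which overlap by 1 sample, a rise of 0.63 (SE 0.149, adjusted p = 0.014, and 0.0504 without naive Mbd2KO replicate 14). The size of this rise was 0.17 without background correction and 0.32 with an offset of 50, and with the stricter detection filter the probe was not tested. In naive WT it read 4.93, 4.62, 4.79 and 4.95, and in DSS WT 5.17, 4.88, 5.04 and 4.82. Mbd2KO against WT gave 0.43 after DSS (adjusted p = 0.0949) and -0.04 in naive CECs (adjusted p = 0.913). At values this close to background the size of a change is not exact.

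Across the 16 samples Irf1, Irf9 and Stat2 varied together. Irf9 and Stat2 had r = 0.931 (0.859 after group means were removed), Irf1 and Irf9 0.914 (0.75), and Irf1 and Stat2 0.87 (0.55). Irf7 followed Irf1 less closely, at r = 0.423 (-0.194 after group means were removed). Ifngr1 and Jak2 had r = 0.692, and 0.847 within groups. With the mean of the epithelial markers Ifngr1 had r = 0.702 and 0.802 within groups, and Jak2 had 0.393 and 0.554. The part of these markers in the pair's r was not tested. These correlations are descriptions over samples that share groups and normalisation, without a test. Among the 15748 other tested genes, those most like Irf1 were Ifi47 (r = 0.971), Oasl2 (0.971) and Gbp3 (0.966), those most like Irf9 were Tap1 (0.959), Parp14 (0.955) and Oasl2 (0.938), and those most like Stat2 were Psmb9 (0.961), Parp3 (0.957) and H2-DMa (0.956), all over 16 samples. Several are interferon-induced genes or parts of antigen processing, such as the peptide transporter subunit Tap1 and the immunoproteasome subunit Psmb9. For Irf8 the nearest were Fam3c (0.957), Plekha2 (0.953) and Rmdn3 (0.932). For Irf7 they were Pepd (0.893), Camkk1 (0.885) and Muc1 (0.885), whose r within groups was 0.39, -0.0346 and 0.245. Genes nearest to the remaining members were Gm12844 and Heca for Ifngr1 (0.893 and 0.883), Chka for Ifngr2 (0.929), D830050E09Rik for Jak2 (0.879) and Prm1 for Socs1 (0.91).

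Other genes of the pathway were read in the same fit from lists of receptors, factors, inhibitors, ligands and targets. Of 5 tested other receptors and kinases (Ifnar2, Ifnlr1, Il10rb, Jak1 and Tyk2), 0 were called in any comparison. Of 13 other Stat and Irf factors, Irf5 was called after DSS in WT (1.20) and in Mbd2KO (1.11), and 0 were called between genotypes, while 7 had an unadjusted p under 0.05 after DSS and 4 in naive CECs, against 21.5% and 23% of all genes. Of 14 other negative regulators 0 were called, and under the looser rule 3 rose and 2 fell between genotypes after DSS and 2 rose and 1 fell in naive CECs, where 5.6% and 5.43% of all genes passed. Usp18, which blocks type I signalling at its receptor, was among those that rose (1.28), and Cish, a relative of Socs1, was among those that fell (by 0.62). Only 4 of 15 ligands were tested. Interferon-gamma itself (Ifng) was detected on 0 of 4 arrays in naive WT, 1 of 4 in naive Mbd2KO, 0 of 5 in DSS WT and 3 of 5 in DSS Mbd2KO, and it passed the looser rule in no comparison.

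Targets of interferon-gamma had larger median changes than the 9 genes. Of 23 tested gamma targets of 28, in naive Mbd2KO against naive WT 8 were called higher (0.425% of all genes) and 0 lower, with a median change of 1.60. After DSS 5 were called higher in Mbd2KO (0.47% of all genes, median 1.53), DSS called 10 higher in WT (1.51%, median 1.46) and 4 higher in Mbd2KO (1.24%, median 1.06). Over all pathway lists 10 genes were called in naive CECs, but 2 without background correction and 3 where only the naive groups were fitted. The medians over all tested genes were -0.0101, -0.0193, 0.00742 and -0.0101 in that order. In naive CECs the 3 largest fitted rises in Mbd2KO were those of Ido1, an enzyme that degrades tryptophan (4.43, where naive WT was detected on 1 of 4 arrays, so that the size is not exact), Cd74, the chaperone of MHC class II (3.75), and the immunoproteasome subunit Psmb8 (3.04). Cd74 had a mean of 9.81 ± 0.527 in naive WT and 13.56 ± 0.742 in naive Mbd2KO (SD, n = 4), and 11.78 ± 0.450 and 14.30 ± 0.163 after DSS. Ciita, the coactivator that switches on MHC class II genes, rose by 3.47 between genotypes after DSS (adjusted p = 0.00076). Leaving out DSS WT replicates 2 and 4, with 2 samples left in that group, took the calls between genotypes after DSS over all lists from 5 to 0.

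Type I targets had smaller medians. Of 21 tested, Parp14 was called higher (1.23) and Rsad2, an antiviral enzyme, lower (-1.19) in naive Mbd2KO against naive WT, with a median change of 0.56. Between genotypes after DSS 0 of 21 were called, 12 had an unadjusted p under 0.05 (21.5% of all genes), 4 rose under the looser rule (2.08% of all genes), and the median was 0.34. DSS called Oasl2 (1.94) and Parp14 (1.08) in WT and Ifit2 (1.21) in Mbd2KO. Rsad2 fell although most others of the list were higher, with 18 of 21 changes above 0. These lists were drawn up with earlier results of the same data known, and many genes answer both kinds of interferon.

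**Figure D5:**
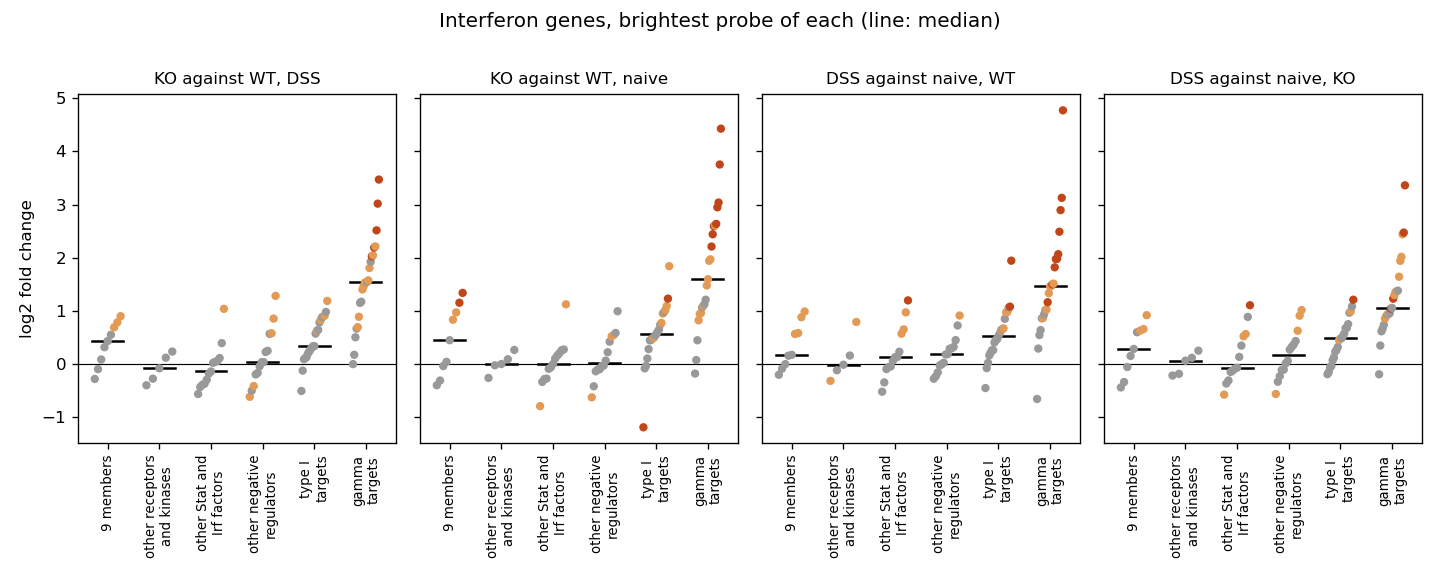
Log2 fold change (y axis) of the brightest probe of each gene in the 9 members and 5 pathway lists (x axis) for 4 comparisons, with 1 point a gene and a line at the list's median; red, called; orange, adjusted p under 0.05; grey, neither. Receptors, kinases and other Stat and Irf factors centre near 0, the members lie between them and the gamma targets, whose medians are 1.06 to 1.60.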

How the data were processed

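RNA from 16 samples of sorted CECs, some of them pools of mice, was measured on 18 Illumina MouseWG-6 BeadChip arrays, which read each transcript with probes of 50 bases. Per the file headers, GenomeStudio (GSGX 1.1.1) exported them without normalisation. Each deposited signal is the intensity averaged over beads, the deposited detection p-value is the share of negative controls that were brighter than the probe, and the deposited bead count (21 to 57 beads behind the values of the tested member probes) gives the precision. Submitters' processing notes name lumi and limma. Their normalised values were not used here, and 36 columns of bead counts and bead errors served only to describe the arrays. The number of arrays limits the precision, and 18851 to 20618 probes were detected on each.

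Signals were corrected with 936 negative controls, quantile-normalised and put on a log2 scale (neqc, limma 3.58.1, R 4.3.3, offset 16). Of 45281 probes, 21938 (15757 genes) had a detection p under 0.05 on 4 arrays or more. The repeat arrays 4R and 5R, whose letter the labels do not explain, were averaged with 4 and 5, from which they differed less (SD of the log2 difference 0.194 and 0.236) than other pairs of their groups. One limma fit with a mean per group (12 residual and 4.71 prior degrees of freedom) gave 5 contrasts, with Benjamini-Hochberg adjustment within each. The test was checked on simulated data.

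All members are named at every probe, and a gene with several probes is led by its brightest. From other lists, genes called in any contrast may be named, or the 3 largest changes each way where over 6 were called, and for each member the 3 genes with the highest r. Usp18, Cish, Ifng and the untested or uncalled receptors fall outside this rule and were named after their values were seen. A gene of the pathway lists is not reported here. Members and lists were chosen with earlier results of these data known. RefSeq names (GRCm38.p6) matched 29586 probes (65.3%) by gene ID, and start regions came from the same release, read with Python 3.11 and pandas 2.3.3. Probe coordinates of the deposited table carry no build and are not printed. Alternatives tried were other background correction, scaling, filters, offset, variance model, array weights, repeat arrays, probes and each sample left out. The methods name 3 separate experiments that the labels do not tie to samples, so no such batch could be tested.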

Additional observations from a re-analysis of the deposited data

Results flagged for a closer look

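In 68 sets of 4 samples (17 tested probes in 4 groups), 3 held a sample farther from the others than the 95% limit of Dixon's test allows, and chance alone flags about 1 set in 20. Irf7 in DSS WT replicate 4 read 7.31, where the nearest of its group read 7.91, a gap of 0.908 of the group's whole range. The Ifngr2 probe ILMN_2592709 in DSS WT replicate 2 read 8.08, with the nearest at 8.52 and a gap of 0.899 of the range. The Jak2 probe ILMN_3115162 in naive WT replicate 12 read 8.91, with the nearest at 8.38 and a gap of 0.864 of the range. DSS WT replicates 2 and 4 are also the samples with low early probes over many genes.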

How the results depend on the processing

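Fits with pairs could not be made: no paired analysis was possible because the replicate numbers 1 to 16 are each used once. Chip as a block was not run, since the headers name no chip. Calls of Irf7 and Irf9 in naive Mbd2KO against naive WT passed the looser rule under all 12 alternatives and in all 16 fits without 1 sample, with log2 fold changes of 1.00 to 1.34 and 0.86 to 1.15 under the former. The stricter rule behind the calls was passed under 12 of 12 for Irf7 and 10 of 12 for Irf9, whose call was lost without background correction (0.86) and where only the groups compared were fitted (adjusted p = 0.0267). Other values moved as follows, comparisons being in the order Mbd2KO against WT after DSS, Mbd2KO against WT in naive CECs, DSS against naive in WT, and DSS against naive in Mbd2KO, and the causes were not tested.

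The looser rule counted 5, 7, 7 and 4 member probes in place of 0, 3, 1 and 0, and 26, 30, 29 and 26 other pathway genes in place of 5, 10, 13 and 6. With no background correction the pathway counts were 2, 2, 3 and 1. With median scaling in place of quantile normalisation, which shifts the median of all probes by 0.241 and 0.233 in the DSS comparisons, 3 and 2 member probes were called after DSS, the looser counts were 4 in naive CECs and 7 for DSS in Mbd2KO, and pathway counts were 8 between genotypes after DSS and 27 and 26 for DSS. The share of calls that were higher went from 77% to 94.7% for DSS in WT, from 62.3% to 87.4% in Mbd2KO, and between genotypes from 58.2% to 41.9% after DSS and from 61.1% to 53.6% in naive CECs. With no filter the looser count after DSS was 2, and pathway counts were 2, 5 (DSS in WT) and 1 (DSS in Mbd2KO). With all 18 arrays as replicates, after DSS 2 member probes were called and 10 passed the looser rule, with pathway counts of 14 and, for DSS in Mbd2KO, 12. Fitting only the groups compared gave 1 called and 4 looser in naive CECs, and pathway counts of 3 there and 3 for DSS in Mbd2KO. Pathway counts for DSS in WT were 6 with an offset of 50 and 7 with a trended robust variance, which gave 3 between genotypes after DSS. Array weights gave 2 called member probes for DSS in WT, and pathway counts of 10 between genotypes after DSS and 11 for DSS in Mbd2KO. Leaving out DSS WT replicates 2 and 4 was an alternative added after the data were seen, and it left 2 samples in that group. The looser counts were then 1 between genotypes after DSS and 4 for DSS in WT, with pathway counts of 0 and 4. Interaction counts were 0 throughout.

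Without 1 sample at a time, member probes called were 0 throughout between genotypes after DSS. They ranged over 2 to 4 in naive CECs, 0 to 2 for DSS in WT and 0 to 1 for DSS in Mbd2KO. Looser counts ranged over 2 to 7, 4 to 9, 4 to 7 and 2 to 5. Pathway counts ranged over 2 to 11, 6 to 17, 4 to 16 and 1 to 17.

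Directions turned in comparisons that passed no rule in the fit reported above. Of these, Ifngr2 for DSS in WT and Irf9 for DSS in Mbd2KO each passed the looser rule under 1 of 12 alternatives. For Irf7 and DSS in WT (-0.0011) the change was 0.03258 without 4R and 5R, 0.3302 with median scaling, 0.004322 without background correction, 0.001944 with an offset of 50, 0.1526 without DSS WT replicates 2 and 4, and -0.06238 to 0.1565 without 1 sample. For Ifngr1 in naive CECs (0.04) it was -0.03721 with array weights, -0.07338 with median scaling and -0.08053 to 0.1513 without 1 sample, and with median scaling it was 0.1963 and 0.05069 for DSS in WT and Mbd2KO. For Jak2, median scaling gave 0.3212 and 0.3242 for DSS in WT and Mbd2KO, array weights 0.07944 in the latter, and leaving out 1 sample -0.1923 to 0.1374 and -0.1634 to 0.05848. The Jak2 interaction was -0.023 as the mean of its probes, -0.03971 without DSS WT replicates 2 and 4 and -0.1933 to 0.1448 without 1 sample. Ifngr2 gave -0.04105 between genotypes after DSS with median scaling and -0.3582 for DSS in WT as the mean of its probes, and the Irf1 interaction was 0.01365 as such a mean. Without 1 sample, Socs1 in naive CECs ranged from -0.1087 to 0.03844 and Irf9 for DSS in Mbd2KO from -0.01979 to 0.2881.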

Other observations

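Some members and probes behaved differently within groups than between them. Within naive Mbd2KO, the brightest Irf1 probe was 12.93 and 13.29 in replicates 13 and 15 and 12.28 and 12.31 in replicates 14 and 16, and Irf9 was 9.42 and 9.29 in the first pair and 8.85 and 8.50 in the second. The mean of the myeloid markers was 7.33 and 6.99 in replicates 13 and 15 and 6.69 and 6.27 in 14 and 16. Irf7 had another order, with its highest value, 9.60, in replicate 16. Over all samples, after group means were removed, the myeloid mean had r = -0.199 with Irf7. The part of these markers in the spread was not tested.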
